A study of Rattus norvegicus with 4 samples.

Results

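Solute carriers are membrane proteins that move nutrients, ions and metabolites into cells, out of them, or between their compartments. Their symbols, Slc or Slco in the rat, give a family number that follows the protein sequence and broadly the substrate. In muscle they bring in amino acids, creatine and taurine, exchange calcium and bicarbonate across the surface membrane, set cell volume through chloride cotransport and pass metabolites across the inner mitochondrial membrane. The members described here were all probe sets whose annotated symbol begins with Slc, leaving out 12 genes (the glucose transporters Slc2a1 and Slc2a4, the metal transporter Slc11a2, the cotransporter Slc12a2, the lactate transporters Slc16a1 and Slc16a3, the mitochondrial carriers Slc25a3, Slc25a4, Slc25a5, Slc25a11 and Slc25a20, and the fatty acid carrier Slc27a1). This gave 114 genes, read by 167 probe sets, of 4737 genes that had a probe set with 1 symbol and 8799 probe sets on the array. A further 2 probe sets, which carry 2 gene IDs for Slc25a51 or the symbols Muc3 and Slc13a2 together, were kept out and gave log2 differences of 0.01 and 0.05, neither past the threshold.

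Soleus muscle, a slow postural muscle of the hindlimb, was taken from female rats in 2 groups of 2 arrays. Control rats had normal cage activity, and unloaded rats could not stand on the hindlimbs during 10 h of the day, repeated daily for 11 days. The labels give neither strain nor age. Each array carried RNA pooled from 4 to 5 rats, so every spread and p-value refers to pools rather than to single animals, and 4 arrays limit the precision of every value. The question was which transporter transcripts differ in abundance between soleus that bears weight all day and soleus unloaded for part of it. In whole-muscle RNA, fewer cells of a type and less RNA per cell cannot be told apart.

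The deposited values are MAS5 signals, a linear measure of hybridisation brightness in which a probe set can be compared only with itself. Differences are given as unloaded minus control on the scale log2(signal + 9), with standard errors, and were tested with limma over all 5257 probe sets whose mean signal reached 20.975. A call means an adjusted p under 0.05 (Benjamini-Hochberg). The arrays correlated at 0.987 between control pools and 0.988 between unloaded pools, and at 0.973 to 0.974 across the groups. Of 6 muscle marker genes on the array (Myh7, Tnni1, Myl3, Atp2a2, Ckm and Acta1), 0 were called, and their median log2 difference was -0.02. The summed signal of the 6 was 46560.8 and 46644.0 in the control pools and 42743.8 and 48227.9 in the unloaded pools. Among markers of other cells, 0 were called by the brightest probe set of each gene (4 endothelial, 4 smooth muscle, 3 adipocyte, 2 Schwann cell, 3 leukocyte and 2 erythroid genes tested). A dimmer probe set of the smooth muscle gene Acta2 was called higher (log2 difference 0.82, SE 0.15, adjusted p = 0.0221). The summed endothelial signal was 369.8 and 371.5 in control pools and 315.7 and 342.6 in unloaded pools, the smooth muscle signal 968.9 and 1086.7 against 1205.3 and 1306.0, the erythroid signal 4256.1 and 4507.5 against 5131.5 and 5035.3, and the Schwann cell and nerve signal 597.3 and 655.6 against 571.6 and 578.7. These 4 sums did not overlap between the groups, and the adipocyte and leukocyte sums did. Among all tested probe sets the pools stood apart toward higher in 25.5% and toward lower in 25.3%. A sum follows its brightest gene. Hbb (4067.3 and 4365.2 in control pools), Acta2 (699.5 and 833.2) and Pmp22 (540.8 and 599.2) made most of the erythroid, smooth muscle and Schwann cell sums. The part of these cells in the results was not tested.

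In the soleus 84 of the 167 solute carrier probe sets (50.3%, for 69 genes) were bright enough to be tested. Of these, 2 rose, 1 fell and 81 did not pass. The 3 calls make 3.57% of the tested members, against 5.25% of all tested probe sets. The calls that rose make 2.38% against 2.59% of all probe sets, and the call that fell makes 1.19% against 2.66%. The tested members were dimmer, with a median mean signal of 62.9 against 94.1, so these shares are not like for like. The transcripts called were Slc37a4, the glucose-6-phosphate translocase of the endoplasmic reticulum, which rose 1.48-fold and 1.58-fold on its 2 probe sets, and Slc12a4, the potassium-chloride cotransporter KCC1, which fell on 1 of its probe sets.

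The stretches upstream of these called genes are shown because they hold the sequence next to which transcription of each starts. Each is the 150 bases before the start of transcription given by RefSeq on the assembly GRCr8, written 5′ to 3′ on the gene's strand, with matches to the motifs searched in capitals. Slc12a4 lies on the minus strand at chr19:50770123-50770272 and Slc37a4 on the plus strand at chr8:53619875-53620024, for which the upstream-most of 2 listed starts was used.
Slc12a4: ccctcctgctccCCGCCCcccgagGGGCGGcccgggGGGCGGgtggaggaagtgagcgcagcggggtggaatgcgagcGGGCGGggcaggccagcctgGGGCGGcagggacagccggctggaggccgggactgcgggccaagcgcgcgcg
Slc37a4: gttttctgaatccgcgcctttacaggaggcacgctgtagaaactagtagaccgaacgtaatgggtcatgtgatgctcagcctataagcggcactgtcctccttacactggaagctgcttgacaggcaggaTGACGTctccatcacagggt
The motifs searched on both strands were the GC box GGGCGG, the cAMP response element core TGACGT, the E-box CACGTG and the TATA box TATAAA. The Slc12a4 stretch has a GC content of 81.3% and holds 5 GC boxes, 1 of them on the opposite strand, and none of the other motifs. The Slc37a4 stretch has a GC content of 52%, near the median of 52.7% over all windows, and holds 1 TGACGT. Over all 33469 windows of this length in the RefSeq table, 26% held a GC box, 5.31% TGACGT, 3.74% CACGTG and 8% TATAAA. Among 106 windows of 96 member genes the shares were 37.7%, 5.66%, 4.72% and 6.6%. A match is a description of the letters and not a binding site.

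The carriers of sugars, sugar phosphates and polyols held both calls that rose. Slc37a4 hands glucose-6-phosphate to glucose-6-phosphatase inside the endoplasmic reticulum. Its brighter probe set read 184.6 and 234.7 in the control pools and 325.9 and 342.7 in the unloaded pools. The dimmer probe set read 181.9 and 203.0 against 289.1 and 288.4. Both unloaded pools stood above both control pools on each probe set. The log2 difference was 0.66 (SE 0.13, 95% interval 0.35 to 0.97, 1.58-fold, adjusted p = 0.0318) on the brighter and 0.57 (SE 0.11, 0.31 to 0.82, 1.48-fold, adjusted p = 0.028) on the dimmer. Both probe sets were designed on the same sequence record, so they are not independent readings. The summed smooth muscle and erythroid marker signals were also higher in both unloaded pools. With each of the 4 pools left out in turn, the brighter gave 0.49 to 0.83 (adjusted p 0.0588 to 0.205) and the dimmer 0.49 to 0.64 (adjusted p 0.0909 to 0.19), so no call stood without any 1 of control pool 1, control pool 2, unloaded pool 1 or unloaded pool 2.

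Slc37a1, a relative that also exchanges glucose-6-phosphate for phosphate, read 65.1 and 70.5 in control pools and 39.7 and 45.8 in unloaded pools. Its values lay on the other side from those of Slc37a4, with both unloaded pools below both control pools. The log2 difference of -0.57 (SE 0.16, 95% interval -0.93 to -0.21) did not pass, at an adjusted p of 0.0842. Slc2a5, the fructose transporter, read 10.9 and 30.3 in control pools and 37.7 and 51.4 in unloaded pools (log2 difference 0.93, SE 0.32, adjusted p = 0.159). Its control mean of 20.6 was below the filter, so it was tested only through its unloaded pools. The value was 0.44 without control pool 1 and 1.42 without control pool 2. With the offset at the 50th and 10th percentile of the signals it was 0.54 and 1.13. The interval of 0.18 to 1.67 is wide, and another probe set for Slc2a5 was too dim to test. On the log2 scale the control pools differed from each other more than the group means did. Slc2a3, a high-affinity glucose transporter best known from neurons, gave -0.15 (SE 0.16, adjusted p = 0.669), and Slc5a3, which brings in the osmolyte myo-inositol, gave -0.20 (SE 0.19, adjusted p = 0.63). The pools of Slc2a3 overlapped. Over the 8 tested probe sets of this group, 4 lay above 0 and 4 below, with a median of 0.09. That median was 0.61 with the filter at the 60th percentile, 0.19 without control pool 1 and 0.02 without control pool 2.

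Among the cotransporters that couple chloride to potassium or sodium, 3 probe sets were tested, and all 3 had both unloaded pools below both control pools. Over all tested probe sets the pools stood apart in this way, toward lower, in 25.3%, and toward higher in 25.5%. Slc12a4 extrudes potassium and chloride together and takes part in regulating cell volume. On its dimmer probe set the signal was 468.8 and 451.8 in control pools and 294.1 and 338.3 in unloaded pools, a fall of 1.45-fold (log2 difference -0.53, SE 0.11, 95% interval -0.78 to -0.28, adjusted p = 0.0324). The brighter probe set, designed on a different sequence record, read 532.3 and 553.4 against 307.0 and 422.9. It gave a log2 difference of -0.58 (SE 0.15, 95% interval -0.92 to -0.23) that did not pass, at an adjusted p of 0.0673. The unloaded pools differed more from each other on that probe set than on the dimmer one. With each pool left out in turn the dimmer probe set gave -0.63 to -0.43 (adjusted p 0.105 to 0.217), and the call was lost without any 1 of the 4 pools. The summed endothelial and the summed Schwann cell and nerve marker signals were also lower in both unloaded pools. The Schwann cell sum came mostly from Pmp22 (log2 difference -0.14, SE 0.10), while Mbp gave 0.18 (SE 0.20). Of the endothelial genes, Pecam1 gave 0.02 (SE 0.12), Vwf -0.03 (SE 0.20), Flt1 -0.23 (SE 0.13) and Kdr -0.63 (SE 0.31). None of these was called, and their part in the Slc12a4 values was not tested.

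Slc12a7, the related cotransporter KCC4, read 109.2 and 118.1 in control pools and 87.8 and 86.5 in unloaded pools. Its log2 difference was -0.35 (SE 0.13, 95% interval -0.65 to -0.05, adjusted p = 0.176). Slc12a1, Slc12a3 and Slc12a5, the cotransporters best known from kidney tubule and neurons, had no probe set bright enough to test. The median of the group was -0.53, which rests on 2 genes, and was -0.04 when the dim probe sets were counted too.

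**Figure D1:**
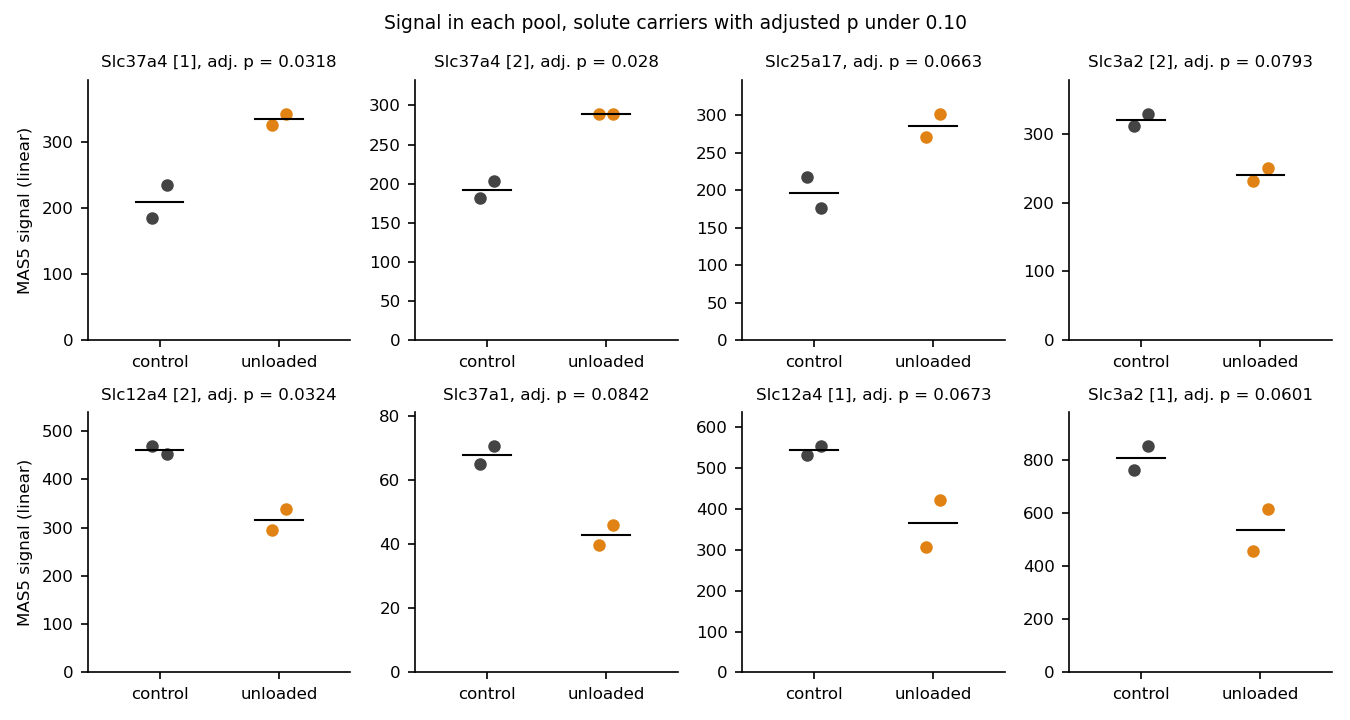
MAS5 signal (linear, y axis from 0) in each control pool (grey) and unloaded pool (orange) for the 8 solute carrier probe sets with an adjusted p under 0.10, where [1] marks the brighter and [2] the dimmer probe set of a gene and the bar is the mean of 2 pools. Both unloaded pools lie above both control pools for Slc37a4 and Slc25a17, and below them for Slc12a4, Slc3a2 and Slc37a1. An adjusted p under 0.05 was reached by both Slc37a4 probe sets and by the dimmer Slc12a4 probe set.

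Of the amino acid carriers, 7 probe sets for 6 genes were tested and 0 were called by limma, with 2 at an unadjusted p under 0.05, a level that 20.8% of all tested probe sets reached. In 5 of the 7 both unloaded pools lay below both control pools, as in 25.3% of all tested probe sets, and the group median was -0.26. The 5 are Slc3a2, on both of its probe sets, Slc6a20a, Slc7a5 and Slc1a2, whose pools stood apart by only 1.02-fold. Slc3a2, the CD98 heavy chain, carries partner subunits such as Slc7a5 to the cell surface, where the pair exchanges large neutral amino acids including leucine. Its brighter probe set read 760.8 and 851.2 in control pools and 455.1 and 615.8 in unloaded pools, and its dimmer one 311.1 and 329.2 against 231.2 and 250.9. The log2 differences were -0.60 (SE 0.15, 95% interval -0.94 to -0.26, adjusted p = 0.0601) and -0.40 (SE 0.11, -0.64 to -0.15, adjusted p = 0.0793). These probe sets come from different sequence records, and neither passed.

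Slc7a5, the light chain LAT1, read 90.7 and 91.0 in control pools and 77.2 and 83.4 in unloaded pools, a log2 difference of -0.16 (SE 0.13, 95% interval -0.47 to 0.14, adjusted p = 0.559). The pools did not overlap, but the difference was near its standard error. Slc6a20a, a carrier of proline and related imino acids, read 42.5 and 50.2 against 35.8 and 32.4 (log2 difference -0.36, SE 0.17, adjusted p = 0.288). The glutamate transporter Slc1a2 read 66.7 and 67.9 against 45.6 and 65.2 (log2 difference -0.26, SE 0.18, adjusted p = 0.476). Without unloaded pool 1 the Slc1a2 difference was -0.04, and 3 other probe sets for this gene were too dim to test. Of these, 1 read 6.8 and 5.0 in control pools against 11.0 and 11.5 in unloaded pools. The others read 3.4 and 1.3 against 4.4 and 4.2, and 6.2 and 4.6 against 4.2 and 4.6. Slc7a1, which carries arginine and lysine, gave 0.17 (SE 0.21, adjusted p = 0.718) with overlapping pools and a control mean below the filter. The group median moved to -0.11 without unloaded pool 1 and to -0.38 without unloaded pool 2, and it was -0.04 when the dim probe sets were counted too.

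Creatine and taurine uptake is a known specialisation of muscle, and its carriers stood among those of neurotransmitters and osmolytes. Slc6a8, the creatine transporter, read 460.8 and 500.8 in control pools and 351.5 and 399.8 in unloaded pools. Slc6a6, the taurine transporter, read 143.6 and 150.4 against 103.2 and 128.6. Both unloaded pools lay below both control pools for each gene. The log2 differences of -0.35 (SE 0.11, 95% interval -0.60 to -0.10, adjusted p = 0.123) for Slc6a8 and -0.33 (SE 0.14, -0.65 to -0.0043, adjusted p = 0.236) for Slc6a6 did not pass. Slc6a2, the noradrenaline transporter of sympathetic nerve endings, gave -0.17 (SE 0.17, adjusted p = 0.638), and the glycine transporter Slc6a9 gave 0.10 (SE 0.17, adjusted p = 0.808). The group held 10 tested probe sets for 9 genes, of which 0 were called and 2 had an unadjusted p under 0.05, with 5 above 0, 5 below 0 and a median of 0.01.

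All 10 probe sets grouped as mitochondrial carriers, for 7 genes and including the peroxisomal Slc25a17, were bright enough to test. Of these, 0 were called, 4 had an unadjusted p under 0.05, and the median was -0.03. Slc25a17, a carrier of the Slc25 family that sits in peroxisomes and moves cofactors such as coenzyme A, read 217.7 and 175.5 in control pools and 270.2 and 301.5 in unloaded pools. Both unloaded pools stood above both control pools, with a log2 difference of 0.53 (SE 0.13, 95% interval 0.22 to 0.84) and an adjusted p of 0.0663. Slc25a23, a calcium-dependent carrier that exchanges ATP-magnesium for phosphate, read 28.9 and 37.8 against 48.7 and 48.3 (log2 difference 0.45, SE 0.18, adjusted p = 0.207). Slc25a14, also called brain mitochondrial carrier protein 1, read 119.2 and 131.5 in control pools and 87.6 and 97.2 in unloaded pools on its brighter probe set. Its dimmer probe set read 96.3 and 86.9 against 63.6 and 69.6. Each gave a log2 difference of -0.41 (SE 0.13, adjusted p = 0.135 and SE 0.14, adjusted p = 0.155), and both come from the same sequence record. The carriers of this group thus lay on both sides of 0. Slc25a26, which brings S-adenosylmethionine into mitochondria, gave -0.18 (SE 0.12, adjusted p = 0.46), and Slc25a1, the citrate carrier, gave 0.23 (SE 0.18, adjusted p = 0.527).

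Metal carriers gave 0 calls among 5 tested probe sets for 4 genes, with 1 at an unadjusted p under 0.05 and a median of -0.04. Slc41a3, a magnesium transporter, read 122.6 and 97.5 in control pools and 148.9 and 157.9 in unloaded pools (log2 difference 0.46, SE 0.14, 95% interval 0.13 to 0.78, adjusted p = 0.123). Both unloaded pools were the higher ones. Slc40a1, ferroportin, which exports iron from cells, gave -0.40 (adjusted p = 0.324, SE 0.21) on its dimmer probe set and 0.09 (adjusted p = 0.834, SE 0.18) on its brighter, so that probe sets from 1 sequence record differed in sign. The zinc transporters Slc30a4 and Slc30a2 gave -0.11 (adjusted p = 0.83, SE 0.21) and -0.04 (adjusted p = 0.95, SE 0.20).

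Bicarbonate and chloride carriers, most of which take part in control of intracellular pH, gave 0 calls among 6 tested probe sets. Of these, 1 had an unadjusted p under 0.05, and the median was 0.03. Slc5a5, which carries iodide, was counted in this group. Slc4a3, an anion exchanger found in heart and other excitable tissue, read 754.8 and 755.6 in control pools and 584.5 and 678.9 in unloaded pools (log2 difference -0.26, SE 0.10, 95% interval -0.50 to -0.02, adjusted p = 0.214). Its unloaded pools were both lower and differed from each other more than the control pools did. Slc4a2, a widespread exchanger of the same family, gave -0.07 (SE 0.15, adjusted p = 0.86). Slc4a1, the band 3 exchanger of red cells, gave 0.10 (adjusted p = 0.778, SE 0.15) and 0.07 (adjusted p = 0.879, SE 0.19) with overlapping pools. Beside it, the erythroid genes Hbb and Alas2 gave 0.21 (adjusted p = 0.219, SE 0.08) and 0.38 (adjusted p = 0.231, SE 0.16). Slc5a5, the iodide transporter of the thyroid, read 38.1 and 7.0 against 34.7 and 21.9 (log2 difference 0.42, SE 0.46, adjusted p = 0.678), where the control pools spanned both unloaded values.

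Carriers of sodium, calcium and protons gave 0 calls among 4 tested probe sets, with 0 at an unadjusted p under 0.05 and a median of -0.03. Slc8a1 is the exchanger that pushes calcium out of the cell against entering sodium. Its brighter probe set read 283.2 and 258.7 in control pools and 202.6 and 352.9 in unloaded pools, so the unloaded pools lay on either side of both controls (log2 difference -0.02, SE 0.22, 95% interval -0.53 to 0.50, adjusted p = 0.979). The dimmer of its tested probe sets gave -0.35 (SE 0.22, adjusted p = 0.42). The related exchangers Slc8a3 and Slc8a2 gave -0.04 (adjusted p = 0.932, SE 0.15) and -0.03 (adjusted p = 0.939, SE 0.15). The proton exchangers Slc9a2, Slc9a3 and Slc9a4 of this group were too dim to test.

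Nucleoside and nucleotide sugar carriers gave 0 calls among 7 tested probe sets, with 1 at an unadjusted p under 0.05, 5 above 0 and a median of 0.08. Slc29a1, the equilibrative nucleoside transporter that takes up adenosine, read 274.3 and 265.5 in control pools and 346.8 and 305.3 in unloaded pools (log2 difference 0.26, SE 0.11, 95% interval 0.01 to 0.52, adjusted p = 0.231). Slc29a2, its relative, read 133.9 and 113.9 against 135.9 and 144.4 (log2 difference 0.17, SE 0.13, adjusted p = 0.527). Both unloaded pools were the higher ones for each, though for Slc29a2 by a narrow margin. The sodium-coupled nucleoside transporters Slc28a1 and Slc28a2 gave 0.19 (adjusted p = 0.599, SE 0.17) and -0.11 (adjusted p = 0.718, SE 0.13), with overlapping pools.

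Among carriers of phosphate, sulfate and carboxylates 0 of 6 tested probe sets were called, 0 had an unadjusted p under 0.05, and the median was -0.09. Slc20a2, a phosphate transporter present in most cells, read 162.7 and 151.2 in control pools and 173.5 and 184.0 in unloaded pools (log2 difference 0.18, SE 0.12, 95% interval -0.09 to 0.45, adjusted p = 0.436). Slc34a1, the phosphate transporter of the kidney, gave -0.30 (adjusted p = 0.373, SE 0.17) and -0.01 (adjusted p = 0.987, SE 0.23). Slc26a1, a sulfate transporter, gave -0.14 (SE 0.21, adjusted p = 0.761). Slc13a2, a citrate and succinate transporter, gave -0.39 (SE 0.32, adjusted p = 0.564), from 97.8 and 41.8 in control pools and 40.6 and 54.9 in unloaded pools. Without control pool 1 the value was 0.15.

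Vitamin, peptide and urea carriers gave 0 calls among 8 tested probe sets, with 1 at an unadjusted p under 0.05 and a median of 0.00. Slc5a6, the transporter of biotin and pantothenate, was read by a dimmer probe set at 57.2 and 69.4 in control pools and 43.6 and 45.8 in unloaded pools (log2 difference -0.42, SE 0.16, adjusted p = 0.19). The brighter probe set read 184.3 and 172.4 against 191.0 and 198.8 (log2 difference 0.12, SE 0.11, adjusted p = 0.604). The pools stood apart on both probe sets, in opposite directions. The folate carrier Slc19a1 gave -0.27 (adjusted p = 0.601, SE 0.25) and 0.07 (adjusted p = 0.849, SE 0.16), Slc23a3 gave -0.14 (SE 0.16, adjusted p = 0.698), and the urea transporter Slc14a1 gave 0.04 (SE 0.13, adjusted p = 0.897).

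Carriers of bile acids and organic ions gave 0 calls among 8 tested probe sets, with 0 at an unadjusted p under 0.05 and a median of -0.06. Slc22a3, a low-affinity carrier of organic cations such as monoamines, read 16.6 and 22.9 in control pools and 28.7 and 31.4 in unloaded pools (log2 difference 0.45, SE 0.21, adjusted p = 0.271). Its control mean of 19.8 was below the filter, so it too was tested only through its unloaded pools. Slco2a1, which takes up prostaglandins, read 41.4 and 37.4 against 29.6 and 32.4 (log2 difference -0.27, SE 0.17, adjusted p = 0.423). Those 2 were the tested probe sets of the group whose pools stood apart. Slc22a5, the carnitine transporter that supplies muscle for fatty acid oxidation, read 86.0 and 124.7 against 103.8 and 84.9 (log2 difference -0.13, SE 0.19, 95% interval -0.57 to 0.31, adjusted p = 0.764). Slc22a13 gave -0.14 (SE 0.21, adjusted p = 0.774). Of the monocarboxylate carriers, Slc16a7, which moves pyruvate and lactate with high affinity, gave -0.17 (SE 0.18, adjusted p = 0.679) and Slc16a6 gave -0.09 (SE 0.17, adjusted p = 0.83), both with overlapping pools. The fatty acid group held Slc27a2 alone, too dim to test.

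**Figure D2:**
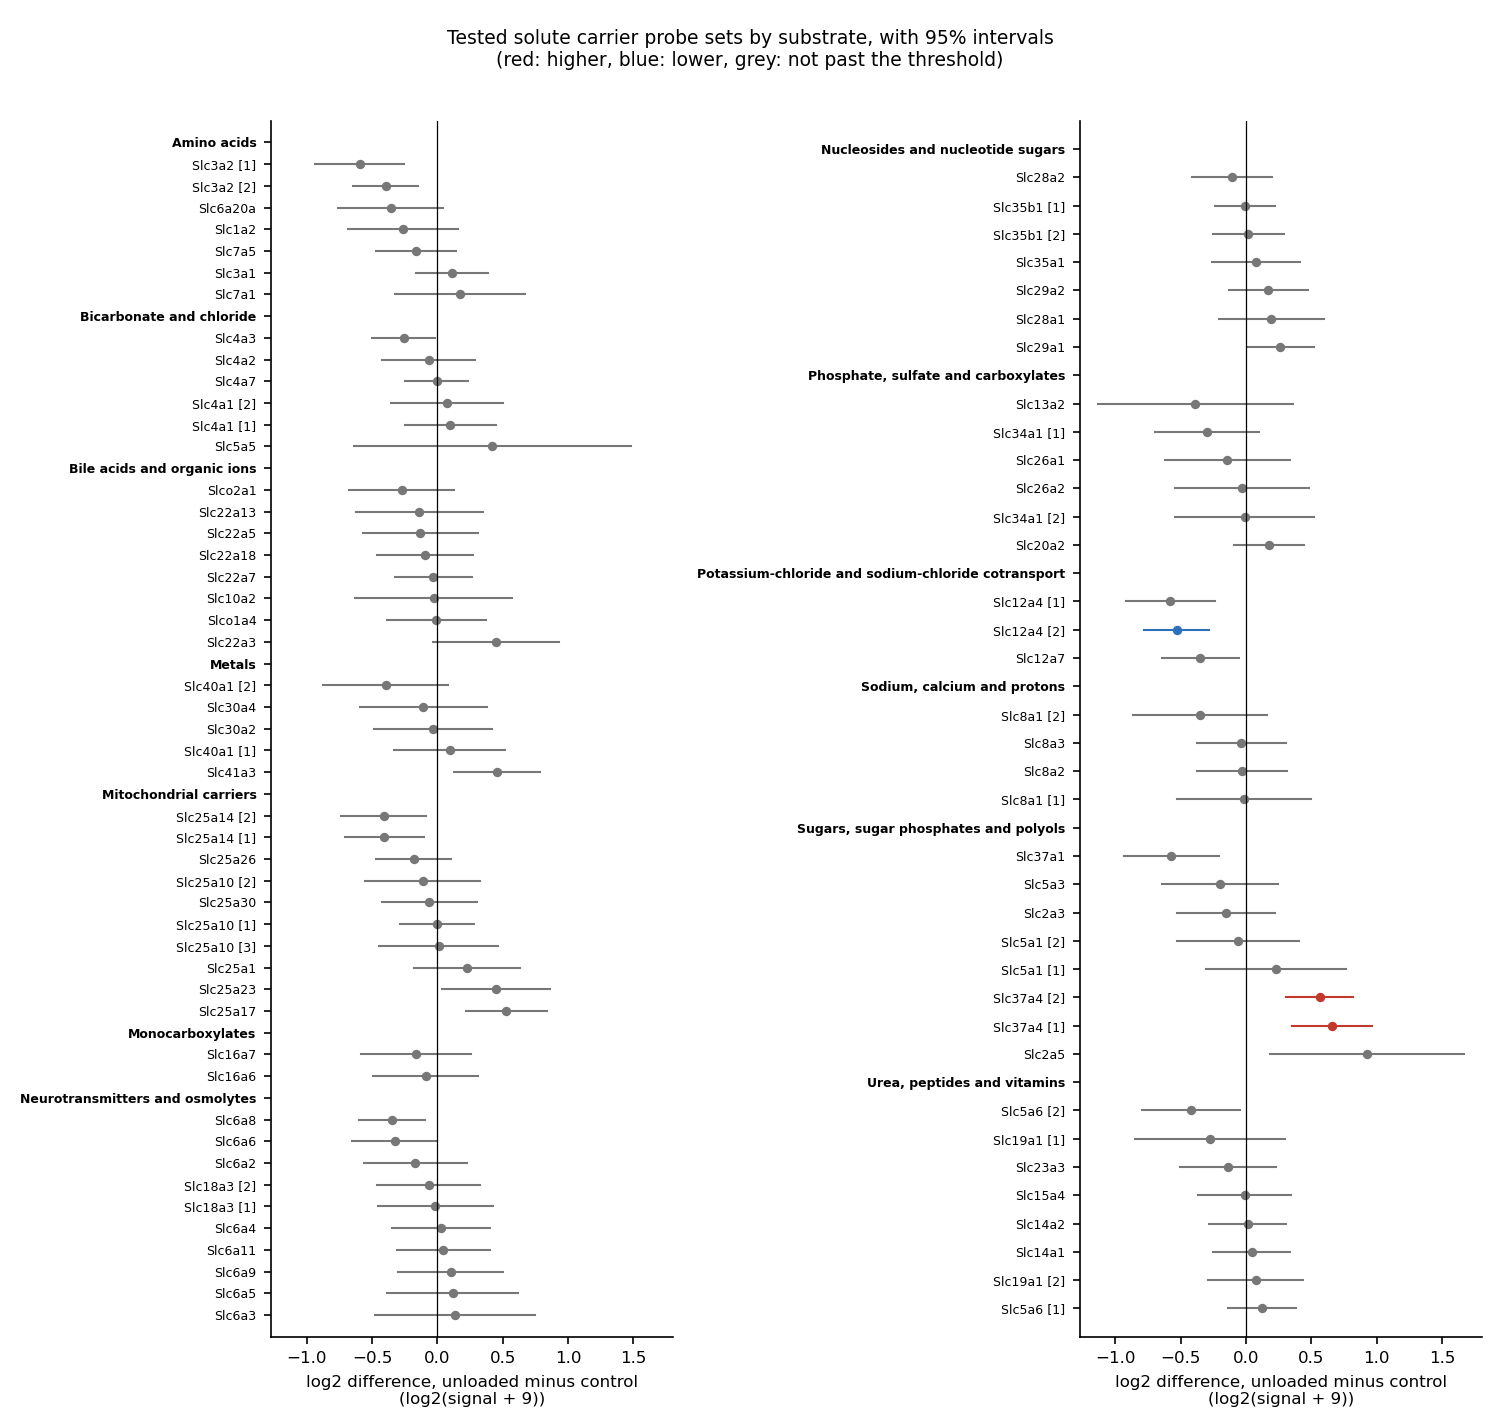
log2 differences (x axis, unloaded minus control, on the log2(signal + 9) scale) of the 84 tested solute carrier probe sets with 95% intervals, grouped by substrate, with [1], [2] and [3] numbering a gene's probe sets from bright to dim. The 2 Slc37a4 probe sets (red, 0.57 and 0.66) and the dimmer Slc12a4 probe set (blue, -0.53) passed, and the other 81 (grey) did not. All 3 probe sets of the potassium-chloride and sodium-chloride group and 5 of the 7 of the amino acid group lie below 0.

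Over the 84 tested members the log2 differences ran from -0.60 to 0.93 with a median of -0.03, beside 0.00 for all tested probe sets. An unadjusted p under 0.05 was found for 19 (22.6%, 7 higher and 12 lower), against 20.8% of all tested probe sets. Both unloaded pools lay above both control pools in 12 (14.3% against 25.5%) and below them in 23 (27.4% against 25.3%), and the pools overlapped in 49. The tested members include 3 that passed the filter only through the unloaded pools, Slc2a5, Slc22a3 and Slc7a1, and 0 of these were called. The difference was below 0 for 53 members (63.1%, against 49.7% of all probe sets), a share that was 57.1% after quantile normalization and 53.6% after median scaling, against 48.5% and 45.2% of all probe sets, and 48.2% without unloaded pool 1. A difference of at least 0.5 in size was found for 8 members (9.52%, against 9.89%). The median 95% interval reached 0.37 to either side of its difference, against 0.34 over all tested probe sets. The whole interval lay within 0.5 of 0 for 32 of the 84 members and for 2264 of all 5257 tested probe sets. The median SD between pools was 0.11 among control and 0.10 among unloaded pools on the log2 scale, beside 0.11 and 0.10 over all probe sets.

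**Figure D3:**
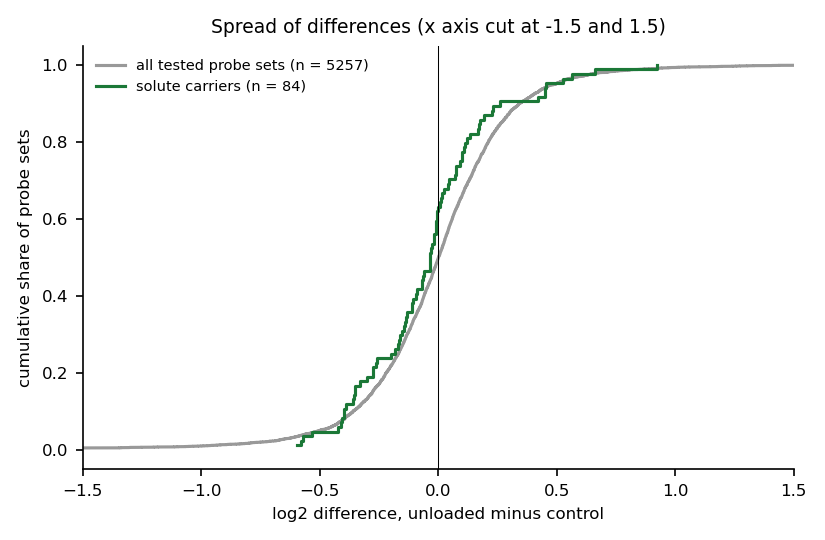
Cumulative share of probe sets (y axis) by log2 difference, unloaded minus control (x axis, cut at both ends), for the 84 tested solute carrier probe sets (green) and all 5257 tested probe sets (grey). The green curve lies to the left of the grey one near 0, where 63.1% of the carriers and 49.7% of all probe sets are below 0, and the curves meet at the ends, with 9.52% and 9.89% at least 0.5 in size.

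Of the 114 genes, 76 were read by 1 probe set and 38 by 2 to 5. For 14 genes at least 2 probe sets were tested. Their differences had the same sign in 8 genes and mixed signs in 6, and the gap between the lowest and highest difference of a gene had a median of 0.16 and a maximum of 0.55, in Slc5a6. In 7 of the 14 genes probe sets came from the same sequence record. Among the genes named above, Slc37a4, Slc12a4, Slc3a2 and Slc25a14 had probe sets that differed by 0.09, 0.05, 0.20 and 0.01. Those of Slc37a4 and of Slc25a14 share a sequence record. Gaps were wider in Slc5a6, Slc40a1, Slc19a1, Slc8a1 and Slc34a1, at 0.55, 0.49, 0.35, 0.34 and 0.29. Signs were mixed in Slc5a6, Slc40a1 and Slc19a1.

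The 83 untested probe sets had mean signals of 0.9 to 20.425, with a median of 8.45 and single readings of 0.2 to 35.5. For 45 genes no probe set was tested, among them carriers best known from brain, liver or kidney, such as the vesicular glutamate transporter Slc17a7 (1.6 to 2.7), the bile acid transporter Slc10a1 (1.4 to 6.2), and the liver glucose transporter Slc2a2 (0.7 to 2.1). At such signals MAS5 values do not tell a low transcript level from background. With no filter, 90 of 8740 probe sets were called by limma. Of the 83, 0 were called and 5 had an unadjusted p under 0.05. Those 5 were probe sets of Slc12a3 and Slc1a2, higher in the unloaded pools, and of Slc22a2, Slc14a1 and Slc1a3, lower, named here because of these values. The largest difference among them was that of Slc12a3, the thiazide-sensitive cotransporter of the kidney, which read 8.4 and 6.9 in control pools and 20.2 and 35.5 in unloaded pools (log2 difference 1.12, SE 0.26, adjusted p = 0.137 with no filter). Its other probe set read 8.6 and 8.1 against 8.0 and 14.5.

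Carriers work with partner and regulatory proteins, of which 27 were listed, among them chaperone subunits, scaffold proteins, kinases of the chloride cotransporters, carbonic anhydrases and subunits of the sodium pump. Of these, 14 were on the array and 13 were tested on their brightest probe set. Of the 13, 3 rose, 0 fell and 10 did not pass, with a median of -0.02. Over all tested probe sets 2.59% were called higher. The list was chosen with earlier results of these data known, and 1 of the 3, Stk39, was tested only through its unloaded pools. The 3 are therefore no measure of an excess over that share. A dimmer probe set of Atp1b2, 1 of the 10, was called higher (log2 difference 0.97, SE 0.19, adjusted p = 0.0283), with a control mean of 14.4 below the filter. Stk39, the kinase SPAK, phosphorylates the chloride cotransporters, activating the sodium-coupled ones and inhibiting the potassium-chloride ones such as Slc12a4. Its brightest probe set read 12.4 and 22.1 in control pools and 122.4 and 140.9 in unloaded pools (log2 difference 2.44, SE 0.21, adjusted p = 5.5e-04). That probe set was the brightest, and passed the filter, only through the unloaded pools (control mean 17.2), and the difference was 1.68 and 2.77 with the offset at the 50th and 10th percentile. The other Stk39 probe sets did not follow it. They read 45.0 and 28.5 against 45.9 and 52.7 (log2 difference 0.37, SE 0.21, adjusted p = 0.369), and 33.6 and 21.9 against 9.5 and 21.4 (log2 difference -0.61, SE 0.29, adjusted p = 0.286). Oxsr1, the companion kinase, gave 0.00 (SE 0.18, adjusted p = 0.993).

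Atp1b1, a beta subunit of the sodium pump whose gradient drives many carriers, read 1799.8 and 1774.4 in control pools and 2832.1 and 2646.1 in unloaded pools on its brightest probe set (log2 difference 0.61, SE 0.09, adjusted p = 0.00748). Of its other 2 probe sets, the brighter gave 0.75 (SE 0.10, adjusted p = 0.0072) and the dimmer 0.50 (SE 0.12) at an adjusted p of 0.0514. All 3 probe sets were higher in both unloaded pools. Car2, the carbonic anhydrase that supplies bicarbonate for exchange, read 77.3 and 62.5 against 129.5 and 134.3 (log2 difference 0.84, SE 0.14, adjusted p = 0.0166), and a dimmer probe set gave 0.74 (SE 0.18, adjusted p = 0.0616). Atp1b1 lost its call without control pool 1, control pool 2 or unloaded pool 1, and Car2 lost its call without any 1 of the pools. With each pool left out in turn, Atp1b1 gave 0.56 to 0.66, Car2 0.71 to 0.98 and Stk39 2.18 to 2.72. The Stk39 values add no support, since that probe set was the brightest, and was tested, only through its unloaded pools. The 10 that did not pass include Bsg, which brings lactate carriers to the surface (0.20, SE 0.09, adjusted p = 0.245), and Nedd4, a ubiquitin ligase that removes carriers from it (-0.37, SE 0.14, adjusted p = 0.191).

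**Figure D4:**
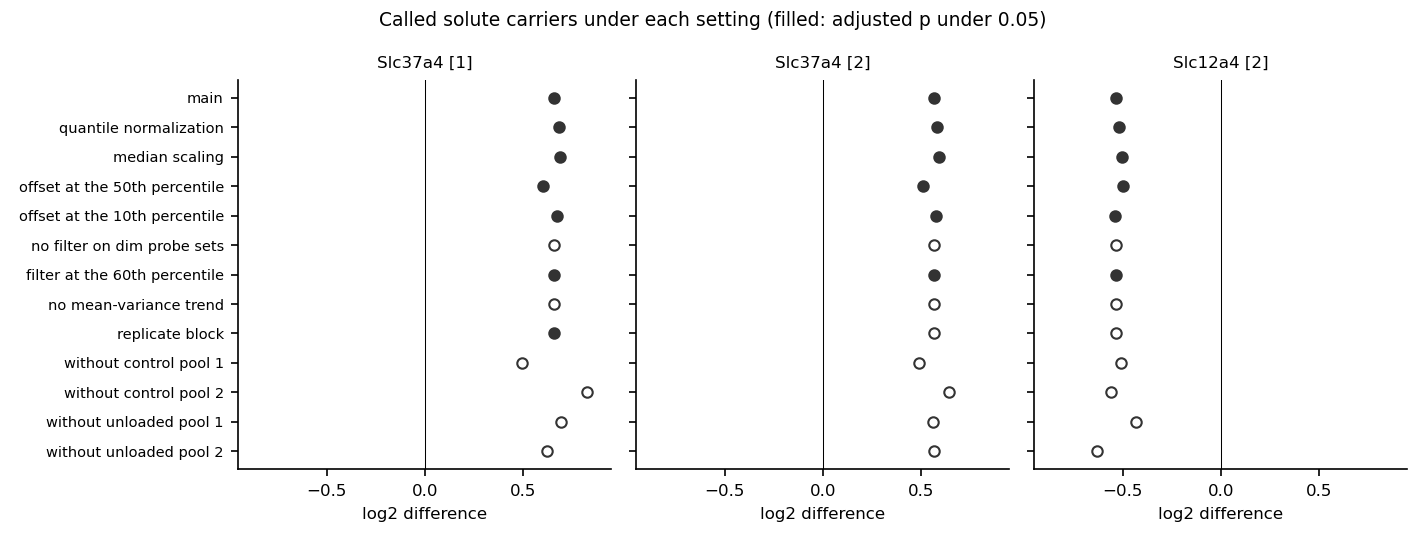
log2 difference (x axis, unloaded minus control) of the 3 called solute carrier probe sets under the processing described and 12 alternatives (y axis), with filled points where the adjusted p was under 0.05. No difference changed sign, between 0.49 and 0.83 for Slc37a4 [1], 0.49 and 0.64 for Slc37a4 [2] and -0.63 and -0.43 for Slc12a4 [2], and no point is filled with any 1 pool left out.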

How the data were processed

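RNA of 4 soleus pools was hybridised to Affymetrix rat arrays. The authors deposited 1 table of linear intensity values per probe set, made with MAS5 per the submitters' processing notes; the sources used here do not give its version, settings or detection calls. MAS5 scaling to a common level assumes a like total signal in both groups, and dim values are noisy. Probe sets were named through the platform annotation, with symbols updated by gene ID to RefSeq (GRCr8); all 167 member probe sets matched and 0 were renamed. An offset of 9 (the signals' 25th percentile) was added before log2, which understates changes of dim transcripts. The filter kept mean signals from 20.975 (40th percentile) upward, without 59 control probe sets. limma 3.58.1 in R 4.3.3 (lmFit, eBayes with trend; 2 residual and 5.80 prior degrees of freedom) compared the groups, with Benjamini-Hochberg adjustment over 5257 probe sets and a threshold of 0.05. The script was tested on simulated data. Promoters were read with Python 3.11.15.

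Named were every called member, up to 4 genes of smallest p per substrate group, and 22 muscle-relevant genes whatever their values, of which 16 were tested (2 of the others, Slc1a1 and Slc1a3, were too dim and 4 were not analysed here). Members, groups and lists were chosen with earlier results of these data known. Alternatives changed scaling, offset, filter, trend, threshold and arrays used.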

Additional observations from a re-analysis of the deposited data

How the results depend on the processing

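The counts of solute carrier probe sets past the threshold, 2 higher and 1 lower, were 2 and 1 after quantile normalization and with the offset at the 50th or 10th percentile, and 3 and 1 after median scaling. They were 0 and 0 with no filter on dim probe sets (adjusted p 0.0722 to 0.106 for the called probe sets) and with no mean-variance trend (0.0838 to 0.105). With the filter at the 60th percentile they were 3 and 3, and at an adjusted p under 0.10 they were 3 and 5. Over all tested probe sets, 136 higher and 140 lower became 42 and 48 with no filter, and 52 and 61 with no trend. With the filter at the 60th percentile these were 183 and 167. The number of a pool did not pair the samples (correlation of the deviations of same-numbered pools -0.04), and with the pool number as a replicate block the counts were 1 and 1: the brighter Slc37a4 probe set and the brighter Slc3a2 probe set (adjusted p = 0.0483 each) passed, while Slc12a4 (0.0689) and the dimmer Slc37a4 probe set (0.0606) did not. Leaving out each pool in turn gave 0 to 0 higher and 0 to 0 lower, where the lone pool of a group is assumed to vary like the other group; over all probe sets it left 58 to 76 calls of 276. The counts of partner genes, whose alternatives were chosen after seeing the data, were 2 or 3 higher and 0 lower with all 4 pools. These counts include Stk39, whose probe set was the brightest, and was tested, only through its unloaded pools. The median of the tested members, -0.03, ran from -0.080 (without control pool 2) to 0.0090 (without unloaded pool 1) with a pool left out, and moved by less than the spread between pools (SD 0.04) under the other alternatives. Of 51 named probe sets not past the threshold, 48 passed under none of the alternatives and 3 under at least 1 (Slc12a4, brighter, with the filter at the 60th percentile; Slc25a17 with that filter and after median scaling; Slc3a2, brighter, with that filter and the block), and 16 had the other sign under at least 1. Of the 13 substrate group medians, 10 took either sign over the alternatives. No called value changed sign. The causes were not tested. With 4 arrays and 2 residual degrees of freedom, the number of pools limits what can be called.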
